A study of Homo sapiens with 6 samples.

Results

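Autophagy machinery and receptors are 42 genes whose products start autophagosome formation, supply and shape its membrane, conjugate the ATG8 family proteins, bind cargo or serve the lysosome. A probe belonged to the set if it was no control spot and its RefSeq accession on the array mapped to 1 of these symbols. The rule itself uses no measured value, but the set was proposed with earlier results of these arrays known and with an eye to genes whose probes disagree. In all 63 probes met this rule, in 41 of the 42 genes, and none was found for NBR1, a cargo receptor. All 6 arrays of the series were used. They were 1-colour Agilent arrays of RNA from CAL-27, an established human tongue squamous carcinoma line, stably transduced with an shRNA against XBP-1s, the spliced form of the transcription factor XBP1 (shXBP-1s, n = 3), or with a negative control shRNA (shCtrl, n = 3). Every array thus came from 1 cell line and both groups carried an integrated shRNA, and the labels name a single shXBP-1s construct. They do not say that the 3 samples of a group were separate cultures, so the p-values measure only the spread between these samples, which may be technical. RNA was pooled over all cells of a sample, so fewer cells expressing a gene and less RNA per cell cannot be told apart.

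In macroautophagy the ULK1 kinase complex and a class III phosphatidylinositol 3-kinase complex start a double membrane, the phagophore, which ATG2, ATG9 and WIPI proteins enlarge. A pair of ubiquitin-like conjugation reactions then attaches ATG8 family proteins such as LC3B to the membrane, where cargo receptors such as p62 dock, and the closed autophagosome fuses with the lysosome. XBP-1s is the transcription factor made when IRE1 splices XBP1 mRNA under endoplasmic reticulum stress, a state that is known to bear on autophagy in tumour cells. The comparison asked which autophagy transcripts differed once XBP1 was reduced, and whether different probes of a gene gave the same answer.

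The 75th percentile of the signal ran from 687.4 to 761.3 on the shCtrl arrays and from 792.0 to 983.4 on the shXBP-1s arrays, and each array was scaled to it. The share of spots well above background was 82.1% to 84.8%, and no spot was saturated. The XBP1 probe, annotated to NM_005080, read 1.88, 1.85 and 1.87 in shCtrl and -0.50, -0.54 and -0.52 in shXBP-1s, as log2 signal minus that percentile. The groups lay well apart, at a difference of -2.39 ± 0.041 (SE; limma with Benjamini-Hochberg adjustment, adjusted p = 2.81e-07), and whether the probe separates spliced from unspliced XBP1 mRNA is not known here. All 7 squamous epithelial markers were well above background on all 6 arrays, and the sum of their unscaled signals ran from 51951.2 to 56974.6 in shCtrl and from 73271.2 to 82692.8 in shXBP-1s. For the other cell types this held for 3 of 4 fibroblast markers (PDGFRA fell short; sums of 629.7 to 765.0 in shCtrl and 365.2 to 500.1 in shXBP-1s), 4 of 4 leukocyte markers (3115.0 to 4869.8 and 2634.1 to 3470.6) and 3 of 3 endothelial markers (150.1 to 177.8 and 193.6 to 255.7). Single markers moved with the comparison, since KRT5 (log2 fold change 1.43), KRT14 (1.58), KRT17 (1.53) and PDGFRA (1.03) were at least 2-fold higher and PDGFRB (-1.28) was lower with adjusted p below 0.05 in limma. PDGFRA was very dim, with unscaled signals of 3.1 to 6.5 in shCtrl and 9.8 to 14.0 in shXBP-1s. Its rise did not hold with normexp background correction (-0.84), or with that and quantile normalization (0.081). No marker was at 0, and the part of any of these in the results was not tested. The arrays fell into 2 scan runs, taken as slides, with shCtrl replicates 2 and 3 in one and shCtrl replicate 1 with all shXBP-1s samples in the other.

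Of the 63 probes, 62 were tested and were well above background on all 6 arrays. The third ULK2 probe was not well above background on any array. Values below are log2 signals relative to the array's 75th percentile, so that 0 is the signal that 75% of spots stay under, and a log2 fold change is the shXBP-1s mean minus the shCtrl mean. A probe was called if its limma adjusted p over all tested probes was below 0.05 and its change at least 2-fold. By this rule 5 of the 62 probes were called lower and 0 higher. They belonged to OPTN, UVRAG, ATG5, ATG7 and LAMP2 and made up 8.06% of the member probes, against 2.61% of all 27624 tested probes called lower and 2.29% called higher. At 1.5-fold 9 member probes were lower and 2 higher, where 8.15% of all tested probes were lower and 6.8% higher. The shXBP-1s and shCtrl arrays did not overlap for 41 of the 62 probes, 66.1%, where 52.4% of all tested probes did not overlap. An exact permutation test of 3 against 3 arrays cannot go below p = 0.1, and precision is set by the 3 arrays in each group.

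With each gene represented by its brightest tested probe and no minimum fold, 17 of the 41 genes passed the adjusted p in the lower direction (41.5%), 8 in the higher (19.5%), and 16 did not pass. Over all 16821 genes tested in this way, 27.5% were lower and 18.9% higher. The 17 lower genes ran from -1.30 to -0.16 and the 8 higher genes from 0.14 to 0.64, so the largest changes were decreases. Of these 25 genes, 19 passed whichever array was left out. ATG2B, ATG3 and TFE3 failed in 5 of the 6 omissions, LAMP1 in 3, ATG16L1 in 2 and TFEB in 1. In 12 genes (ULK2, PIK3C3, UVRAG, WIPI1, ATG4B, ATG5, MAP1LC3B, GABARAPL2, SQSTM1, OPTN, LAMP2 and EPG5) the brightest probe passed in every omission and in every other fit to single probes. Of these, ULK2, ATG5, MAP1LC3B and LAMP2 also had a probe that passed with the opposite sign in the main fit. Those probes read 0.36 in ULK2, -1.04 in ATG5, -0.26 in MAP1LC3B, and -0.26 and -1.02 in LAMP2. With probes averaged within each gene, 5 genes passed higher and 19 lower. ATG5 (-0.28) and LAMP2 (-0.22) then read below 0, while ULK2 (-0.24) and MAP1LC3B kept their signs. By the brightest probe, the median over the 41 genes was -0.074, beside -0.041 over all genes. Quantile normalization moved the split of the same 41 genes to 13 higher and 15 lower. The share higher among those that passed went from 32.0% to 46.4%, while over all genes it moved from 40.8% to 47.0%. With quantile normalization TAX1BP1, VMP1, GABARAPL1, ATG4A and ATG12 passed higher as well, and ATG2B and ATG3 no longer passed lower.

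**Figure D1:**
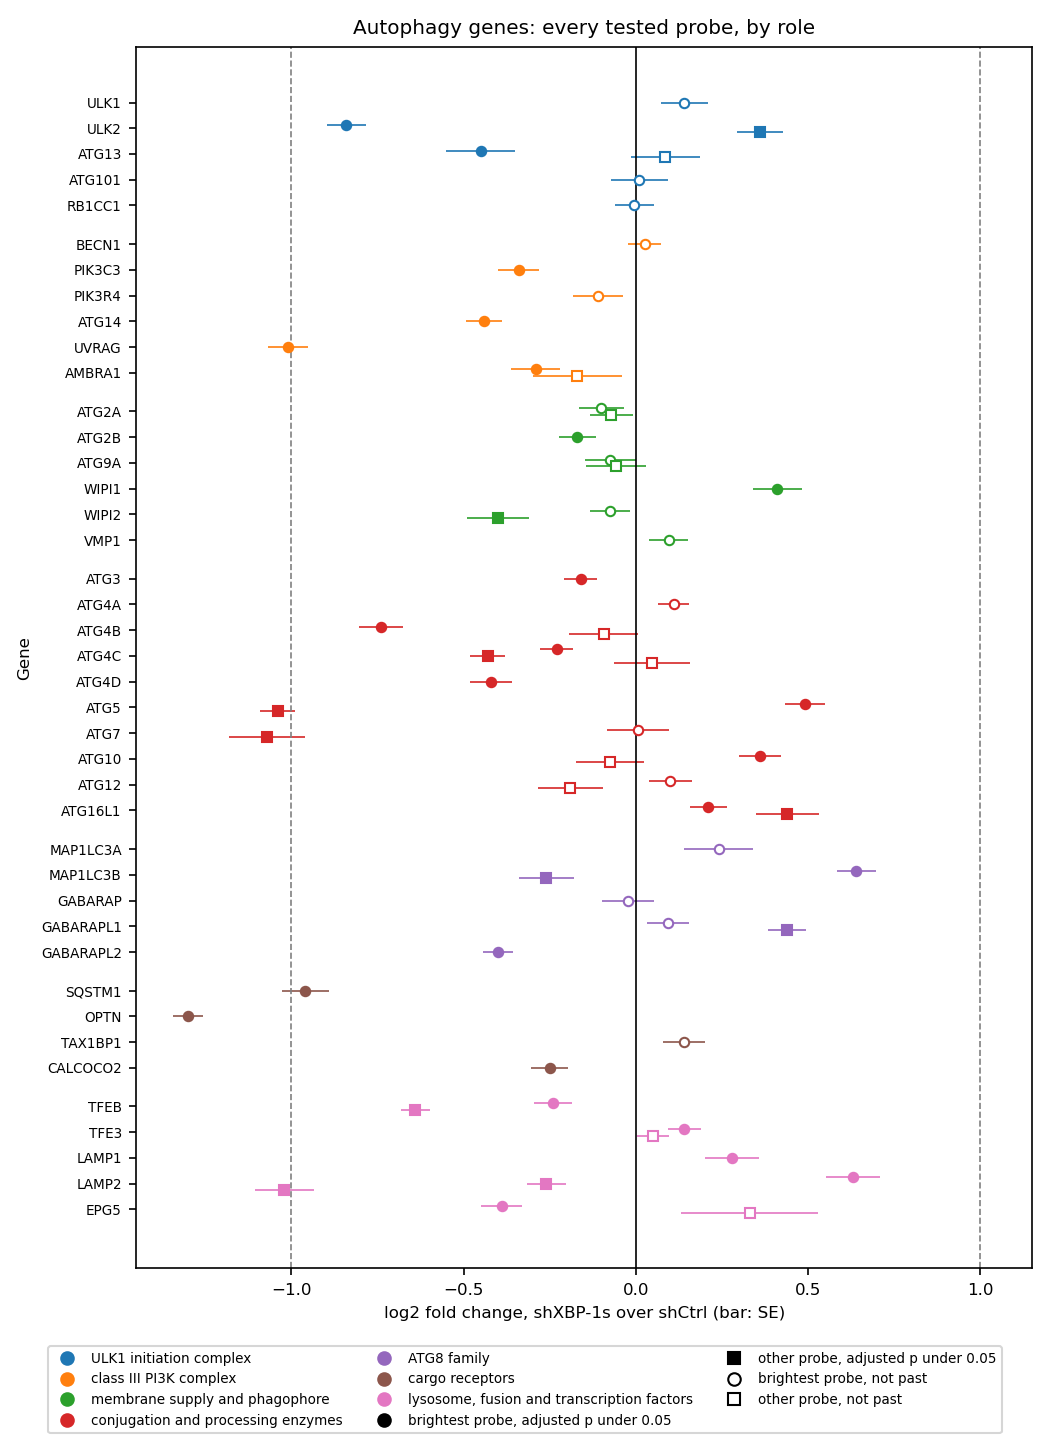
Log2 fold change (x axis, shXBP-1s over shCtrl, bars are SE, n = 3 arrays per group) of each of the 62 tested probes, by gene and role; circles are the brightest probe of a gene, squares its other probes, and filled symbols passed the adjusted p. The 5 probes beyond -1 lie in UVRAG, ATG5, ATG7, OPTN and LAMP2, none lies beyond 1, and several genes have probes on both sides of 0; the higher ULK2 and ATG16L1 squares turned negative (-0.23 and -0.52) with normexp background correction, under which the median of all tested probes was -0.41.

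The lowest log2 fold change of the set was that of a cargo receptor, OPTN. Of the 4 measured receptors 3 fell, where 27.5% of all genes did, with a median of -0.61 over the 4. OPTN, the autophagy receptor optineurin that is known for its part in the removal of damaged mitochondria, read 1.19, 1.24 and 1.25 on the shCtrl arrays and -0.089, -0.067 and -0.059 on the shXBP-1s arrays. The groups lay far apart and the replicates close together. Its fall of 1.30 ± 0.043 (SE), a 2.46-fold decrease, had an adjusted p of 1.39e-06 in limma, and leaving out any 1 array gave -1.32 to -1.29.

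SQSTM1 encodes p62, the receptor that links ubiquitinated cargo to LC3 and is itself degraded by autophagy. Its values were 3.46, 3.35 and 3.39 in shCtrl and 2.56, 2.43 and 2.31 in shXBP-1s. The 2 groups did not overlap, and the difference of -0.96 ± 0.068 (SE; limma adjusted p = 2.04e-05) came to 1.95-fold, just under the 2-fold threshold, which it passed without shXBP-1s replicate 1 (-1.03). CALCOCO2, which encodes the receptor NDP52, fell by 0.25 (adjusted p = 0.00594), a call that the scan run as a block ended (-0.23, adjusted p = 0.057). TAX1BP1, a further ubiquitin-binding receptor, was 0.14 higher with an adjusted p of 0.108 in limma and did not pass. With quantile normalization it passed (0.19, limma adjusted p = 0.0113).

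The OPTN promoter window is shown because OPTN had the lowest log2 fold change of the set. It is the 250 bases before the first listed start of the gene in RefSeq, chr10:13099832-13100081 on the plus strand of GRCh38.p14, written 5′ to 3′ with no capitals since none of the letters searched for (given with the LAMP1 window) were in this window.
OPTN: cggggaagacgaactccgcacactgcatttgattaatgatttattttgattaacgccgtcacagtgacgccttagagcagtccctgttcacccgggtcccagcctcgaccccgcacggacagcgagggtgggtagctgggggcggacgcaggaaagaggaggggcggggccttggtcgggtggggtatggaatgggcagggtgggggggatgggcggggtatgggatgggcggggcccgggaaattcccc

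In the ULK1 complex, which phosphorylates the first proteins at the phagophore, 2 of 5 genes fell by their brightest probe (27.5% of all genes did). None rose (18.9% of all genes did), and the median was -0.0040. The fallen genes were ULK2, the paralogue of ULK1, and ATG13, its regulatory partner (-0.45, adjusted p = 0.00628 in limma). The other ATG13 probe read 0.085 and did not pass (limma adjusted p = 0.516). ULK1 itself (0.14), the scaffold RB1CC1, also called FIP200 (-0.0040), and ATG101 (0.0095) did not pass.

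In the class III phosphatidylinositol 3-kinase group 4 of 6 genes fell (27.5% of all genes did), none rose (18.9% of all genes did), and the median was -0.32. UVRAG, a subunit of the form of this complex that works in endosome and autophagosome maturation, read -0.71, -0.61 and -0.58 in shCtrl and -1.69, -1.68 and -1.58 in shXBP-1s. No shXBP-1s array came near a shCtrl array. The fall of 1.01 ± 0.059 (SE) had a limma adjusted p of 8.49e-06 and was 2.02-fold, at the edge of the threshold, so that the call was lost when shCtrl replicate 3, shXBP-1s replicate 1 or shXBP-1s replicate 2 was left out (-1.05 to -0.99 over all 6 omissions). ATG14, the subunit that directs the complex to autophagosome formation, fell by 0.44 (adjusted p = 2.87e-04). The catalytic subunit PIK3C3 fell by 0.34. AMBRA1, a regulator of Beclin 1, fell by 0.29 on its brightest probe, which no longer passed with the scan run as a block (-0.29, adjusted p = 0.0708), and its other probe read -0.17 and did not pass (adjusted p = 0.355). BECN1, which encodes Beclin 1 and is shared by both forms of the complex, was at 0.026 ± 0.048 (SE; adjusted p = 0.698), and the regulatory subunit PIK3R4 at -0.11.

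**Figure D2:**
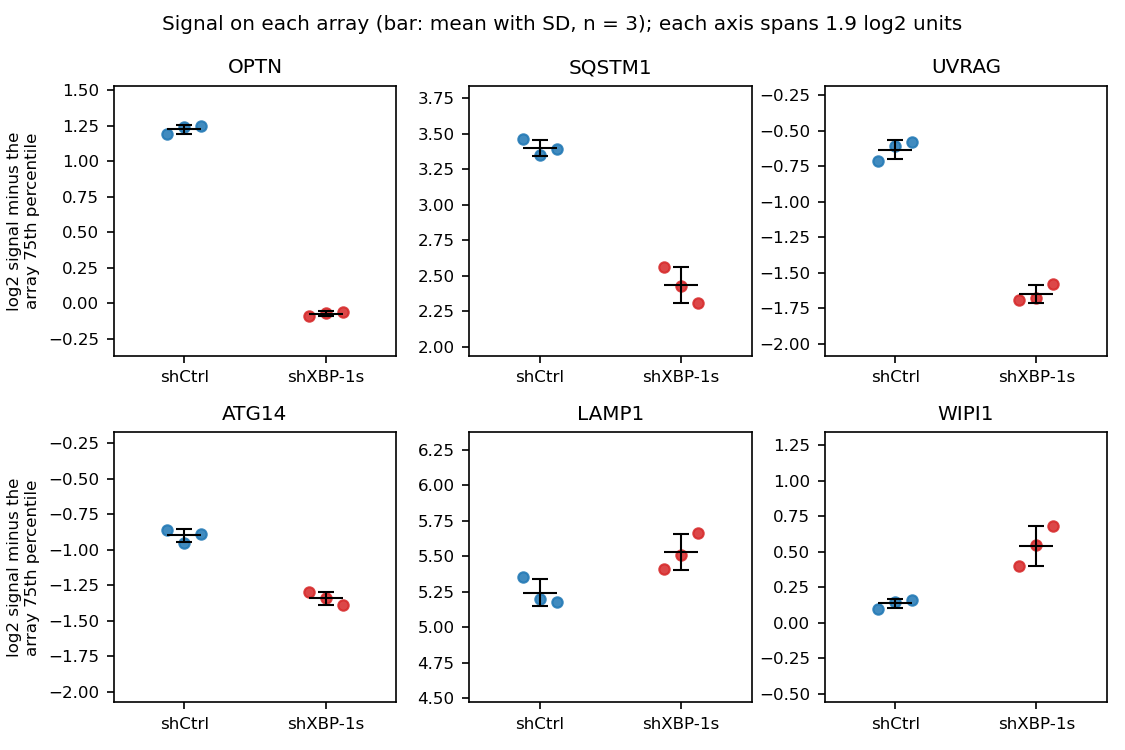
Log2 signal minus the array's 75th percentile (y axis) of 6 single-probe genes on each array, shCtrl in blue and shXBP-1s in red, with the mean and SD of 3 arrays as bars; every axis spans the same number of log2 units. OPTN, SQSTM1, UVRAG and ATG14 lie lower and LAMP1 and WIPI1 higher in shXBP-1s, with no overlap between groups in any of the 6 panels.

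Among the genes of membrane supply, 1 of 6 rose and 1 fell, where 18.9% of all genes rose and 27.5% fell. WIPI1, which binds the phosphatidylinositol 3-phosphate made by that kinase, rose by 0.41 (limma adjusted p = 0.00234), and ATG2B, a lipid transfer protein, fell by 0.17 (adjusted p = 0.0378), which did not pass with quantile normalization (-0.12, adjusted p = 0.104). Their relatives ATG2A (-0.10), ATG9A (-0.074), WIPI2 (-0.075) and VMP1 (0.095), a membrane protein of the endoplasmic reticulum needed for phagophore formation, did not pass by the brightest probe. The other WIPI2 probe fell by 0.40.

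The 10 conjugation and processing enzymes split, with 3 higher (18.9% of all genes were), 4 lower (27.5%), 3 that did not pass and a median of 0.050. The decreases were in proteases that trim and release ATG8 proteins, ATG4B (-0.74, limma adjusted p = 5.60e-05), ATG4D (-0.42) and ATG4C (-0.23), together with the E2-like enzyme ATG3 (-0.16, adjusted p = 0.0336), which did not pass with quantile normalization (-0.090, adjusted p = 0.133). The other ATG4B probe read -0.093 and did not pass (limma adjusted p = 0.517). The second ATG4C probe read -0.43, which passed, and the third 0.046, which did not. ATG4A, the remaining protease of the family, was at 0.11 and did not pass (adjusted p = 0.0748). The increases were in ATG5 (0.49), the E2-like ATG10 (0.36), which joins ATG12 to ATG5, and ATG16L1 (0.21), which places that conjugate on the membrane. The other ATG10 probe read -0.075 and did not pass (limma adjusted p = 0.584). ATG12 was at 0.10 and did not pass. Both ATG16L1 probes rose by the scaling used here (0.21 and 0.44), although the dimmer one read -0.52 with normexp background correction, where the median of all tested probes was -0.41.

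The probes of a gene did not always give the same direction, and ATG5 was the clearest case. Its brightest probe read 2.09, 2.13 and 2.03 in shCtrl and 2.5, 2.55 and 2.67 in shXBP-1s, an increase of 0.49 ± 0.058 (SE; limma adjusted p = 2.99e-04). The other probe, annotated to the same accession NM_004849, read -0.10, -0.0011 and -0.032 in shCtrl and -1.13, -1.07 and -1.06 in shXBP-1s, a decrease of 1.04 ± 0.050 (adjusted p = 4.20e-06). Neither probe's groups overlapped, and their changes ran opposite. The distance between the 2 probes within an array, in which the scaling of the array cancels, was 2.20, 2.13 and 2.07 in shCtrl and 3.62, 3.62 and 3.73 in shXBP-1s, so the 2 fold changes differed by 1.53 ± 0.075 (SE; limma over all probe pairs, adjusted p = 8.23e-05).

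ATG7, the E1-like enzyme that activates both ATG12 and the ATG8 proteins, also had 2 probes to 1 accession, NM_006395. The brighter read -1.77, -1.92 and -1.79 in shCtrl and -1.67, -1.81 and -1.99 in shXBP-1s. These ranges overlapped, and the change was 0.0050 ± 0.090 (SE; limma adjusted p = 0.973). The dimmer read -3.07, -3.15 and -3.15 in shCtrl and -3.97, -4.25 and -4.34 in shXBP-1s. It did not overlap and fell by 1.07 ± 0.11 (SE; limma adjusted p = 1.23e-04), though by 0.99 without shXBP-1s replicate 3. With normexp it read -1.06 and no longer passed (adjusted p = 0.153), and with normexp and quantile normalization -0.49. The 2 changes differed by 1.07 ± 0.074 (SE; limma over pairs, adjusted p = 2.00e-04). The paper lists quantitative PCR primers for ATG5 and ATG7. It reports that such PCR also found array genes lower in CAL-27 after knockdown of XBP-1s. The legend of that figure does not name the genes, and where the primers lie relative to these probes was not examined.

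ULK2 showed the reverse order, with a decrease on the brighter probe. That probe read -1.59, -1.62 and -1.64 in shCtrl and -2.52, -2.46 and -2.40 in shXBP-1s, a fall of 0.84 ± 0.057 (SE; limma adjusted p = 1.74e-05). The second read -3.09, -2.96 and -2.97 in shCtrl and -2.69, -2.64 and -2.61 in shXBP-1s, a rise of 0.36 ± 0.067 (adjusted p = 0.00356) by this scaling but -0.23 with normexp background correction, with all tested probes at a median of -0.41. Neither probe's groups overlapped, and the 2 changes differed by -1.20 ± 0.077 (SE; limma over pairs, adjusted p = 1.49e-04).

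Over the whole set, 19 genes had at least 2 tested probes, giving 21 pairs of the brightest probe with another. In 4 pairs, in ATG5, ATG7, ULK2 and LAMP2, the 2 fold changes differed by at least 1 on the log2 scale with adjusted p below 0.05. That was 19% of the member pairs, where 6.58% of all 4875 pairs on the array met the rule. Since the set was proposed with disagreeing probes in view, this share and the next are descriptions and no independent evidence that autophagy genes differ from others. In 5 pairs, in ULK2, ATG5, MAP1LC3B and LAMP2, both probes passed with opposite signs, 23.8% against 6.24% of all pairs. In 12 pairs, in 11 genes, the difference passed with no minimum size, which added MAP1LC3B, ATG4B, ATG10, ATG13, EPG5, TFEB and WIPI2. The share of all pairs that did so was not computed. This count and the gene counts that follow therefore describe these probes only. Of the 19 genes TFEB was the sole one whose probes all passed the adjusted p lower, and ATG16L1 the sole one whose probes all passed it higher. In ATG2A, ATG9A and ATG12 no probe passed. Probe sequences were not used here, so which part of a transcript each probe reads is not known.

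**Figure D3:**
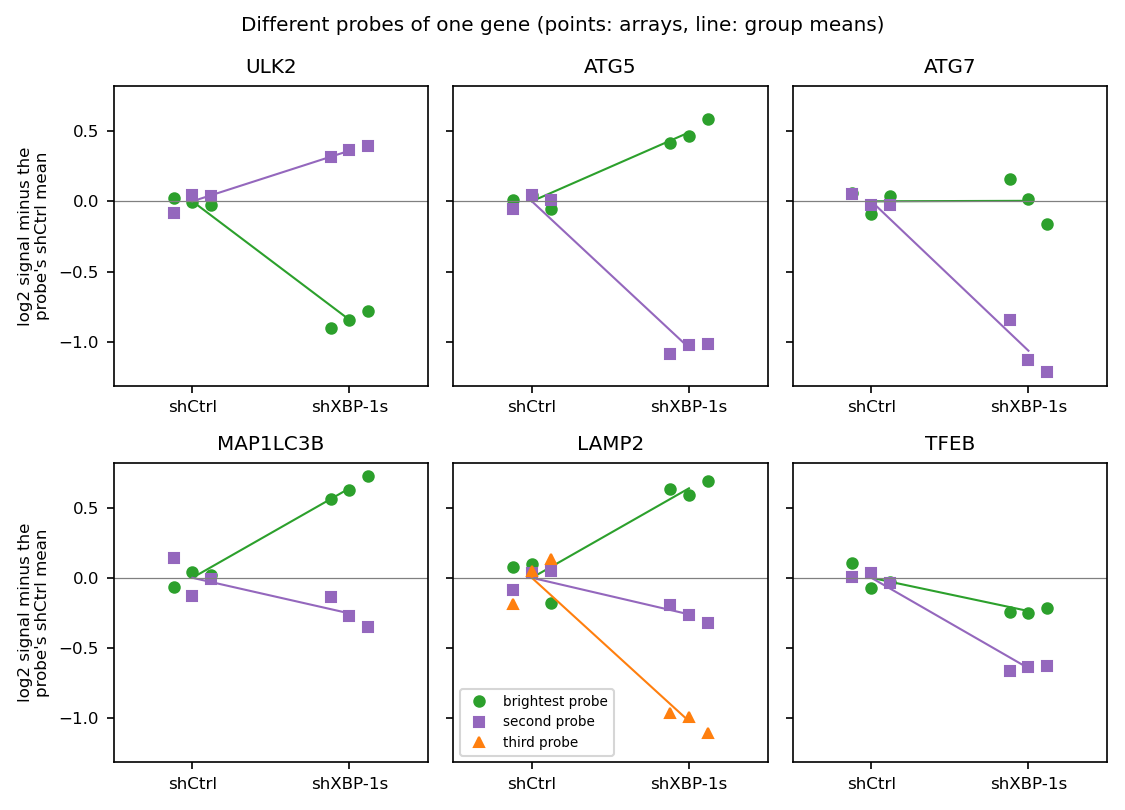
Log2 signal minus the probe's own shCtrl mean (y axis) on each array for the probes of 6 genes, with lines joining the group means of 3 arrays; green circles are the brightest probe. ULK2, ATG5, MAP1LC3B and LAMP2 have probes that moved apart in opposite directions by this scaling (the second ULK2 probe read -0.23 with normexp background correction), in ATG7 only 1 of 2 probes fell, and in TFEB both fell by unequal amounts.

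In the ATG8 family 1 of 5 genes rose and 1 fell, where 18.9% of all genes rose and 27.5% fell. MAP1LC3B encodes LC3B, the protein most often followed as a mark of autophagosomes. Its brightest probe read 2.16, 2.27 and 2.25 in shCtrl and 2.79, 2.85 and 2.95 in shXBP-1s, and rose by 0.64 ± 0.056 (SE; limma adjusted p = 6.69e-05). The second probe of the same accession, NM_022818, read 1.09, 0.82 and 0.94 in shCtrl and 0.81, 0.68 and 0.60 in shXBP-1s and fell by 0.26 ± 0.080 (adjusted p = 0.0341). In neither probe did the groups overlap, although the second came close, at 0.82 against 0.81, and its fall did not pass under quantile normalization (-0.20) or without shCtrl replicate 1 or 3 or shXBP-1s replicate 2 or 3 (-0.32 to -0.19 over all omissions). Their changes differed by 0.89 ± 0.13 (SE; limma over pairs, adjusted p = 0.00312). GABARAPL2, also called GATE-16, fell by 0.40 (adjusted p = 1.97e-04). GABARAP (-0.022), GABARAPL1 (0.092) and MAP1LC3A (0.24) did not pass by their brightest probe, while the second GABARAPL1 probe rose by 0.44.

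All 5 genes of the lysosome, fusion and transcription factor group passed, 3 higher (18.9% of all genes were) and 2 lower (27.5%), with a median of 0.14. LAMP1, an abundant glycoprotein of the lysosomal membrane, read 5.35, 5.20 and 5.18 in shCtrl and 5.41, 5.51 and 5.66 in shXBP-1s. The groups stood apart by little, and the rise of 0.28 ± 0.078 (SE) had a limma adjusted p of 0.020. It no longer passed with the scan run as a block, which leaves 1 control array (0.18, adjusted p = 0.234), or when shCtrl replicate 2, shCtrl replicate 3 or shXBP-1s replicate 2 was left out (0.22 to 0.34 over all omissions). TFEB, the transcription factor that drives many lysosomal and autophagy genes, fell on both probes, by 0.24 (adjusted p = 0.00977) and 0.64 (adjusted p = 1.50e-05). Its relative TFE3 rose by 0.14 with an adjusted p of 0.0495, close to the threshold, and failed it when any of 5 of the 6 arrays was left out (0.11 to 0.17). EPG5, a tether for fusion of autophagosome and lysosome, fell by 0.39 on its brightest probe (limma adjusted p = 0.00104). Its other probe read 0.33 and did not pass (adjusted p = 0.231).

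LAMP2 has transcript variants that differ in the last exon and so in the membrane anchor and tail of the protein. Its probes are annotated to different variants. Probe sequences were not used, so whether each probe reads only its own variant is not known. The probe of NM_001122606, variant C, read 1.83, 1.85 and 1.57 in shCtrl and 2.38, 2.34 and 2.44 in shXBP-1s and rose by 0.63 ± 0.078 (SE; limma adjusted p = 3.76e-04). The probe of NM_013995, variant B, read 1.68, 1.80 and 1.81 in shCtrl and 1.57, 1.5 and 1.44 in shXBP-1s and fell by 0.26 ± 0.057 (adjusted p = 0.00708), though not with the scan run as a block (-0.18, adjusted p = 0.0982) or with normexp (-0.10, adjusted p = 0.451). The probe of NM_002294, variant A, whose protein is the receptor of chaperone-mediated autophagy, read -0.54, -0.31 and -0.22 in shCtrl and -1.32, -1.35 and -1.46 in shXBP-1s and fell by 1.02 ± 0.087 (adjusted p = 5.62e-05). None of the 3 probes overlapped between groups. The changes of the variant C and variant A probes differed by 1.65 ± 0.16 (SE; limma over pairs, adjusted p = 5.44e-04), and those of variants C and B by 0.89 ± 0.12 (adjusted p = 0.00203). The variant A call at 2-fold was lost without shCtrl replicate 2, shCtrl replicate 3 or shXBP-1s replicate 3 (-1.11 to -0.95 over all 6 omissions).

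The LAMP1 promoter is shown because TFEB and TFE3 bind the letters CACGTG, the E-box, and because these letters recur in it. Capitals mark each E-box, which reads the same on both strands. The window holds the 250 bases before the RefSeq start, chr13:113296989-113297238 on the plus strand of GRCh38.p14, 5′ to 3′.
LAMP1: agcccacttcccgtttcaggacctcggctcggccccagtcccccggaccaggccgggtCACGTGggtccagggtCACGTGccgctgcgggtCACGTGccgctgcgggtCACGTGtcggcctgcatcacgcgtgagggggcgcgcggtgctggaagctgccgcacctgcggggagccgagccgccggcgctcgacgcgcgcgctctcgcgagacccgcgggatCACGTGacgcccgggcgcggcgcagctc

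The LAMP1 window held 5 E-boxes, which began 192, 176, 159, 142 and 28 bases before the start, and it was the only 1 of 35116 promoter windows in the table with 5 or more. The E-box was also found before ATG14 (chromosome 14) and ATG3 (chromosome 3), so 3 of the 36 members with an entry held it. Some members have several windows, and 3 of the 46 member windows, 6.52%, held it against 6.34% of all windows. Both other motifs, searched on both strands, belong to the unfolded protein response. The element TGACGTGG, which XBP-1s binds, was in 0 of the 36 members and in 0.612% of all windows, and the endoplasmic reticulum stress element, CCAAT followed 9 bases on by CCACG, was in 0 of the 36 and in 0.074%. No E-box found overlapped another motif. The XBP-1 motif that the paper reports as enriched in XBP-1 peaks also holds the letters CACGTG. An E-box match therefore does not tell TFEB or TFE3 from XBP-1. A match is a description of letters in a window, and these arrays do not measure binding.

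Genes around the core machinery are given as counts, to be read beside the 27.5% of all genes that passed lower and the 18.9% that passed higher. Of 9 measured further core genes, such as relatives of the WIPI proteins, 4 passed higher and 3 lower, of 13 fusion genes 3 higher and 1 lower, of 15 V-ATPase subunits 1 higher and 5 lower, and of 20 lysosomal membrane proteins and hydrolases 4 higher and 5 lower, none at 2-fold. These counts go by the brightest probe. The core gene SH3GLB1 (0.62, other probe -0.89) and the V-ATPase subunit ATP6V1C1 (-0.66, other probe 0.23) had another probe that passed with the opposite sign. Of 13 organelle receptors and selective adaptors 2 passed higher and 7 lower, with a median of -0.32, and SEC62, a translocon protein and receptor for turnover of the endoplasmic reticulum, fell by 1.02 (limma adjusted p = 1.59e-04). With an SE of 0.11 the SEC62 value lay at the edge of the 2-fold threshold. It read -1.09 with normexp and -0.60 with normexp and quantile normalization. Of 25 genes of mTORC1 and AMPK control, which sense nutrients and energy upstream of ULK1, 4 passed higher and 10 lower. Here PRKAA1, the catalytic alpha1 subunit of AMPK, fell by 1.20 on its brightest probe (adjusted p = 2.93e-06) but was 0.46 higher on the other (adjusted p = 1.54e-04).

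Of the probes near or past 2-fold, OPTN was the only one called under every treatment of the signal tried. The fit with the scan run as a block compares the shXBP-1s arrays with shCtrl replicate 1 alone, since no other scan run holds both groups, so it is also the value within that run. With 1 control array the spread comes from the other arrays, and the lone array is assumed to vary as they do, so calls of this fit rest on that assumption. It gave -1.26 for OPTN, -1.02 for SQSTM1, which was then called, -0.94 for UVRAG, -0.98 for the dimmer ATG5 probe, -1.11 for the dimmer ATG7 probe and -0.83 for the LAMP2 variant A probe. All 6 stayed below 0, and UVRAG, ATG5 and LAMP2 came under 2-fold. With normexp background correction OPTN alone was called (-1.16), although the others stayed nearly as low, at -1.06 for ATG7, -0.94 for ATG5, -0.92 for UVRAG and -0.88 for LAMP2 variant A, beside a median of -0.41 over all tested probes.

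**Figure D4:**
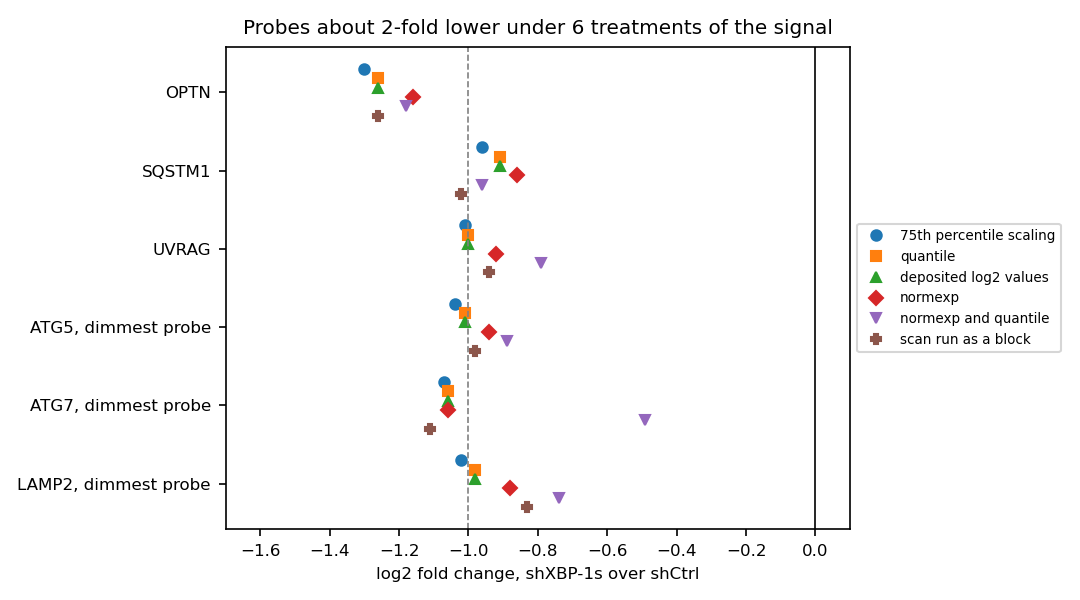
Log2 fold change (x axis, shXBP-1s over shCtrl) of 6 probes under 6 treatments of the signal, 1 symbol each; the dashed line marks 2-fold. OPTN stays below -1 under all 6, SQSTM1 passes -1 only with the scan run as a block (-1.02), and the dimmest ATG7 probe moves to -0.49 with normexp and quantile normalization.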

How the data were processed

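The 6 scanner files (Agilent Feature Extraction 11.0.1.1) give 44495 spots per array, 1377 of them controls, and the authors deposited processed signal intensity, already background-subtracted by the scanner software, with a value table on the log2 scale whose preparation the submitters' notes give as RMA. The labels describe a NimbleGen labelling of the cDNA, whereas the files are Agilent's. Probes were named through their RefSeq accession, which gave a symbol for 25771 of 34127. The main scale was log2 of the processed signal minus the array's 75th percentile over non-control spots, with flagged spots left out and spots of a probe averaged. limma 3.58.1 (R 4.3.3; lmFit, eBayes with trend, two-sided) was fitted on 27624 probes, those well above background on every array of at least 1 group, with Benjamini-Hochberg adjustment over all of them, and on within-array differences over 4875 probe pairs. Calls needed adjusted p below 0.05 and 2-fold, or a difference of 1 between 2 log2 fold changes. The fit was tested on simulated data.

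Given in full are genes with a called probe or pair and ATG5, ATG7, SQSTM1, MAP1LC3B and LAMP1. Other members are given by the fold change of the brightest probe, and other lists by counts and their called members. The members and lists were chosen with earlier results of these data known. Alternatives were normexp (offset 50, on median signal) with and without quantile normalization, the deposited log2 values, quantile normalization alone, other filters, flagged spots kept, no trend, the methods' t-test, 1.5-fold, the mean over probes, replicate and scan run as blocks, and leaving out each array. All per-sample columns were mapped. Promoter windows are RefSeq's (GRCh38.p14); 36 of 42 members matched, and LAMP2, UVRAG, RB1CC1, ATG4D, EPG5 and MAP1LC3A were not.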

Additional observations from a re-analysis of the deposited data

How the results depend on the processing

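The 5 member probes called lower became 1 (OPTN) with normexp, alone or with quantile normalization, 3 (ATG5, ATG7 and OPTN) with quantile normalization and with the deposited log2 values, and 3 (ATG7, OPTN and SQSTM1) with the scan run as a block. They ranged from 3 to 5 over the omissions of 1 array, at 3 when shCtrl replicate 3 (ATG5, ATG7 and OPTN) or shXBP-1s replicate 3 (ATG5, OPTN and UVRAG) was left out. At 1.5-fold 9 were lower (8.15% of all tested probes were) and 2 higher (6.8%). The 17 lower genes became 8 with normexp. The 8 higher genes became 4 with normexp, 13 with quantile normalization, 13 with the deposited values, 5 with the mean over probes and 5 to 8 over the omissions. Calls over all genes moved as well. The share higher among all genes that passed was 40.8% in the main fit, 44.6% with normexp and 47.0% with quantile normalization or the deposited values. Among members it was 32.0%, 33.3% and 46.4%. Apart from 1.5-fold, shares of all probes or pairs called under these settings were not computed. The 4 called pairs became 2 (ATG5 and LAMP2) under both normexp settings, and were 4 in each omission. The cause was not tested. Under normexp the median of all tested probes was -0.41, but probes did not shift alike, so that value is no common baseline for its signs. The dim second probes of EPG5 (0.33 to -0.89) and ATG16L1 (0.44 to -0.52) moved down. The bright LAMP1 probe (0.28 to 0.43) and the brightest MAP1LC3B probe (0.64 to 0.75) moved up.

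With the replicate number as a block, 5 probes were called lower, 7 genes passed higher and 16 lower, and 4 pairs were called. Of the 62 probe values, 60 kept their direction and side of the threshold under that block, 46 with the scan run as a block, 50 with quantile normalization and 32 with normexp. Same-numbered samples did not deviate together (correlations of -0.016, 0.117 and -0.116), so the numbers were not taken to pair the samples.

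Signs turned as follows, in genes given by their brightest probe unless stated. With normexp: second ULK2 probe -0.23, second ATG13 probe -0.38, ATG101 -0.076, RB1CC1 0.14, WIPI2 0.052, the third ATG4C probe -0.26, ATG7 -0.24, second ATG16L1 probe -0.52, MAP1LC3A -0.47, GABARAP 0.065 and second EPG5 probe -0.89. With normexp and quantile normalization: RB1CC1 0.10, BECN1 -0.030, second ATG9A probe 0.030 and GABARAP 0.034. With quantile normalization and with the deposited values: RB1CC1 0.052 and 0.051, GABARAP 0.029 and 0.029. With the scan run as a block: ATG101 -0.027, RB1CC1 0.084, BECN1 -0.025, second ATG4B probe 0.045 and ATG7 -0.051. With the mean over probes: ATG5 -0.28, ATG7 -0.53, ATG12 -0.047 and LAMP2 -0.22. Leaving out 1 array gave -0.015 to 0.16 for the second ATG13 probe, -0.066 to 0.10 for ATG101, -0.048 to 0.035 for RB1CC1, -0.00085 to 0.052 for BECN1, -0.11 to 0.020 for the second ATG9A probe, -0.17 to 0.0002 for the second ATG4B probe, -0.086 to 0.11 for the third ATG4C probe, -0.073 to 0.089 for ATG7 and -0.067 to 0.047 for GABARAP.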
